A study of Mus musculus with 6 samples.

Results

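Prostanoid and bradykinin receptors were described as a set of 10 genes, chosen by their symbols among the 45703 genes of a count table. The set holds the PGE2 receptors Ptger1, Ptger2, Ptger3 and Ptger4, the prostacyclin receptor Ptgir, the PGF2alpha receptor Ptgfr, the PGD2 receptor Ptgdr, the thromboxane receptor Tbxa2r and the bradykinin receptors Bdkrb1 and Bdkrb2. All 10 symbols were found in the table. RNA sequencing was done on 6 replicate cultures (1 to 6) grown from dorsal root ganglia (DRG), which house the cell bodies of sensory neurons together with satellite glia. The ganglia came from adult wild type C57BL/6 mice aged 4 to 6 weeks, and all cultures shared the same conditions: 7 days in vitro, medium with 10% fetal calf serum, and EGF and FGF at 10 ng/ml each. RNA came from 2 dishes per sample, and the cultures are described as biological replicates without saying whether each had its own animals, so p-values measure only the spread between these samples. The cells were not sorted, so each culture is a mixture of cell types. There was no untreated tissue and no second condition, so comparisons were made between cultures and between genes.

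Prostanoids are lipid mediators made from arachidonic acid by cyclooxygenases and terminal synthases, and bradykinin is a peptide cut from kininogens. Both classes act on G protein-coupled receptors. In sensory ganglia they are known for making nociceptors, the neurons that report noxious stimuli, easier to excite. The receptors coupled to Gs (Ptger2, Ptger4, Ptgir and Ptgdr) raise cyclic AMP, those coupled to Gq (Ptger1, Ptgfr, Tbxa2r and both bradykinin receptors) raise intracellular calcium, and Ptger3 couples mainly to Gi. Bdkrb2 is the constitutive bradykinin receptor of many tissues, whereas Bdkrb1 is known as the receptor that injury and inflammation induce.

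The libraries held 20070639 to 22968642 counts, and the TMM scaling factors lay between 0.976 and 1.02. All 6 glial lineage markers and all 8 neuron markers reached a CPM (count of a gene per 1000000 counts of its library) of at least 1 in every culture. Culture 5 stood apart: its fibroblast markers summed to 13977 CPM and its endothelial markers to 136 CPM, against 3339 to 7452 CPM and 10.5 to 47.8 CPM in the other cultures. Its glial lineage markers summed to 4346 CPM, against 5646 to 6396 CPM elsewhere. Culture 1 was at the other end, with the lowest sums of the fibroblast, macrophage, endothelial and mural lists. In such mixed RNA, fewer cells of a type and less RNA per cell cannot be told apart.

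The DNA just before the transcription start is shown for the 3 receptors that the results turn on. Ptgir, the least variable of the set, and the variable Bdkrb2 can thus be set side by side with Ptger4. Each sequence holds the 250 bases before the RefSeq start on GRCm38.p6, read 5′ to 3′ on the gene's own strand, with GC boxes (GGGCGG on either strand) and CCAAT boxes (CCAAT on either strand) in capitals.
Ptgir, chr7:16906240-16906489, plus strand: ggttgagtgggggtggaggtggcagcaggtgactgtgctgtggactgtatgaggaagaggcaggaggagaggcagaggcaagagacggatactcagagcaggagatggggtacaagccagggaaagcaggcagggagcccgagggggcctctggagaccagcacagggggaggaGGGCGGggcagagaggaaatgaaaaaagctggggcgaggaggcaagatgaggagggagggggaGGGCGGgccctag
Ptger4, chr15:5244188-5244437, minus strand: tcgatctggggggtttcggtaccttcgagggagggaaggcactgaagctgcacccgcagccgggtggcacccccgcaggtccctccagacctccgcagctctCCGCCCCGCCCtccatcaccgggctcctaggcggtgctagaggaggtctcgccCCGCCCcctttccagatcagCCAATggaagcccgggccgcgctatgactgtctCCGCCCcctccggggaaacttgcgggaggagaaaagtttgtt
Bdkrb2, chr12:105562922-105563171, plus strand: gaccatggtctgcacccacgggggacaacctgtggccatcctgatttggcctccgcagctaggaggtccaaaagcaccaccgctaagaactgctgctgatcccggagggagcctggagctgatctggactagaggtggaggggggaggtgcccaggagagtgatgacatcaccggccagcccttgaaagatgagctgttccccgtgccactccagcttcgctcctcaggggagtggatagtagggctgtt

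The Ptgir stretch held 2 GC boxes and the Ptger4 stretch held 4, of which 1 pair overlapped, with 1 CCAAT box. The Bdkrb2 stretch held neither motif. Among 32851 promoters of the same length in the RefSeq table, 32.7% had a GC box and 33.8% a CCAAT box. A TATA box (TATAAA), an AP-1 motif (TGANTCA) and a cyclic AMP response element (TGACGTCA) were found in none of the 3 stretches on either strand, and in 12.4%, 6.75% and 1.55% of all promoters. G and C made up 63.6%, 66.8% and 60.8% of the Ptgir, Ptger4 and Bdkrb2 stretches, against a median of 52.4% over all promoters. The table held entries for 8 of the 10 genes. A GC box was found for 4 of them (Ptgir, Ptger4, Ptger3 and Ptgfr) and for none of Bdkrb2, Tbxa2r, Ptgdr and Ptger2.

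Receptor transcripts were scarce. Of the 10 genes, 5 (Ptgir, Bdkrb2, Ptger4, Ptger1 and Ptgfr) reached 1 CPM in all 6 cultures, where 30.4% of all genes in the table did so. A filter on low counts (edgeR's filterByExpr) kept these 5 together with Tbxa2r and Ptgdr, and removed Bdkrb1, Ptger2 and Ptger3, each of which had at most 3 counts in at least 1 culture. The summed CPM of the 10 genes was 28.7 ± 12.2 (SD, n = 6). Levels were compared between genes as CPM per kilobase of combined exon length, and on that scale even Ptgir stood at the 30.9th percentile of the 14998 genes kept by the filter.

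**Figure D1:**
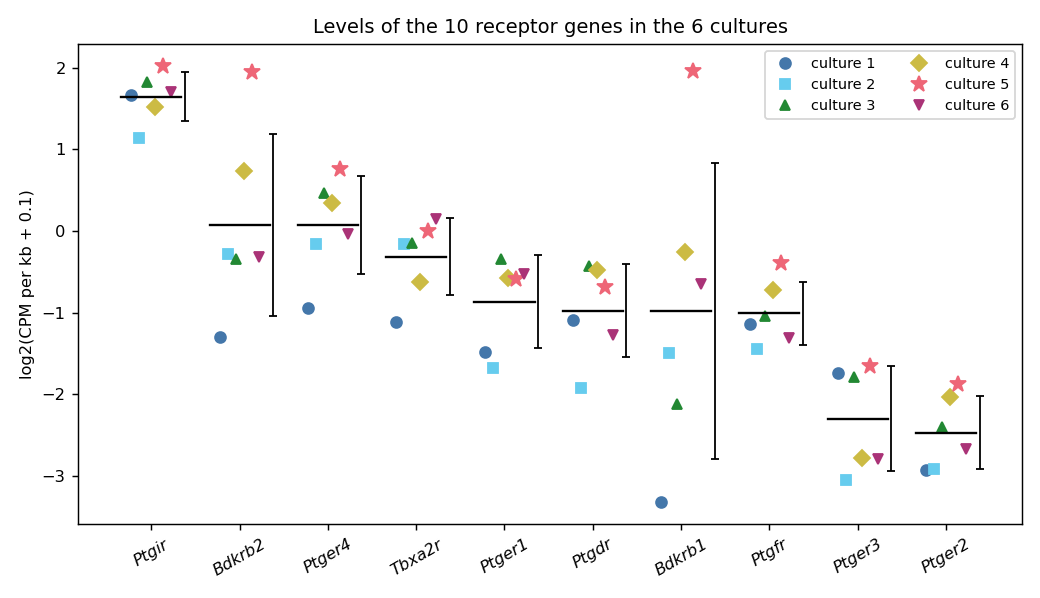
Levels of the 10 receptor genes as log2(CPM per kb + 0.1), 1 symbol per culture, ordered by their mean (horizontal line, with the SD over 6 cultures as a bar at its right). Ptgir was highest and the least variable of the set, while the bradykinin receptors were spread widely, with culture 5 at the top of both.

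The prostacyclin receptor gene Ptgir (chromosome 7, 16906490 to 16910905, GRCm38.p6) had the highest level of the set. It was counted at 10.2, 7.01, 11.5, 9.22, 13.2 and 10.6 CPM in cultures 1 to 6, a mean of 10.3 ± 2.11 CPM (SD, n = 6), or 3.09 ± 0.632 CPM per kb. The highest culture exceeded the lowest by 1.89-fold, with culture 5 at the top and culture 2 at the bottom. Ptgir was also the steadiest of the set, with a coefficient of variation of 20.5%.

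Among the PGE2 receptors, Ptger4 (chromosome 15, 5233399 to 5244187), the high-affinity Gs-coupled receptor EP4, was the most abundant. Its values were 1.39, 2.64, 4.25, 3.89, 5.30 and 2.92 CPM in cultures 1 to 6, a mean of 3.40 ± 1.37 CPM (SD, n = 6). Culture 1 was the lowest and culture 5 the highest, 3.81-fold apart. Per kilobase Ptger4 averaged 1.02 ± 0.412 CPM per kb, and Ptgir exceeded it in 6 of 6 cultures, by 1.58 ± 0.543 on the log2(CPM per kb + 0.1) scale (SD, n = 6; exact sign-flip permutation p = 0.0312, the smallest that 6 cultures allow; adjusted p = 0.0375 over 6 named pairs; 1.03 with a pseudocount of 1).

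Ptger2 (chromosome 14, 44988111 to 45003820), the other Gs-coupled PGE2 receptor, had 3, 3, 8, 12, 15 and 5 counts in cultures 1 to 6. Ptger3 (chromosome 3, 157566821 to 157644758), the Gi-coupled receptor, had 10, 1, 9, 2, 10 and 2 counts. Both were thus near the limit of detection, since 3 counts correspond to 0.131 to 0.149 CPM in these libraries. Ptger4 exceeded Ptger2 in 6 of 6 cultures, by 2.54 ± 0.318 on the log2(CPM per kb + 0.1) scale, and exceeded Ptger3 in 6 of 6 (difference of Ptger3 from Ptger4 -2.37 ± 0.836; SD, n = 6; exact sign-flip permutation p = 0.0312 and adjusted p = 0.0375 for each). The size of such differences depends on the pseudocount: with 1 in place of 0.1 they were 0.87 and -0.83.

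Ptger1 (chromosome 8, 83666644 to 83672756), the Gq-coupled PGE2 receptor EP1, was counted at 1.39, 1.14, 3.69, 3.09, 3.06 and 3.20 CPM in cultures 1 to 6, a mean of 2.60 ± 1.06 CPM (SD, n = 6). Cultures 1 and 2 were low, and the other 4 lay between 3.06 and 3.69 CPM. Its difference from Ptger4 was -0.93 ± 0.421 on the log2(CPM per kb + 0.1) scale, and it was lower in 6 of 6 cultures (SD, n = 6; exact sign-flip permutation p = 0.0312, adjusted p = 0.0375; -0.43 with a pseudocount of 1). Its level is uncertain, because the strand setting of the counting is not given in the sources used here.

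The receptors for the remaining prostanoids were low as well. Tbxa2r (chromosome 10, 81328268 to 81335174), the thromboxane receptor, had 0.784, 1.73, 1.75, 1.20, 1.96 and 2.20 CPM in cultures 1 to 6, with culture 6 highest and culture 1 lowest. Ptgfr (chromosome 3, 151798610 to 151837528), the PGF2alpha receptor, had 1.57, 1.18, 1.71, 2.24, 2.91 and 1.34 CPM, with culture 5 highest and culture 2 lowest. Ptgdr (chromosome 14, 44851235 to 44859375), the PGD2 receptor DP1, had 1.18, 0.524, 2.05, 1.97, 1.67 and 1.00 CPM, with culture 3 highest and culture 2 lowest. Counts of Ptgdr were fractional in 3 cultures, and 22.1% of its exonic bases overlap the opposite-strand gene Gm16976, which averaged 0.241 CPM. Ptgfr exceeded Ptger3 in 6 of 6 cultures, by 1.29 ± 0.549 on the log2(CPM per kb + 0.1) scale (SD, n = 6; exact sign-flip permutation p = 0.0312, adjusted p = 0.0375; 0.33 with a pseudocount of 1). Ptgdr2, the second PGD2 receptor and not one of the 10, had at most 2 counts in any culture.

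The bradykinin receptors differed most between cultures. Bdkrb2 (chromosome 12, 105563172 to 105595244) was counted at 1.35, 3.19, 3.05, 6.88, 16.5 and 3.11 CPM in cultures 1 to 6, a mean of 5.68 ± 5.61 CPM (SD, n = 6). Culture 5 was 12.2-fold above culture 1, and without culture 5 the highest and lowest cultures (4 and 1) were 5.09-fold apart and the mean was 3.51 ± 2.03 CPM (SD, n = 5).

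Bdkrb1 (chromosome 12, 105604091 to 105605511), which starts 8846 bases downstream of the end of Bdkrb2 on the same strand, had 0, 8, 4, 21, 113 and 16 counts in cultures 1 to 6, or 0, 0.364, 0.185, 1.05, 5.40 and 0.765 CPM. Culture 5 was at least 41.3-fold higher than culture 1, taking 3 counts per library as the limit that a count of 0 allows. Both receptor genes had their highest values in culture 5 and then culture 4, and their lowest in culture 1. Without culture 5, Bdkrb1 averaged 0.472 ± 0.428 CPM (SD, n = 5), against 1.29 ± 2.05 CPM with it (SD, n = 6).

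Per kilobase, Bdkrb2 averaged 1.29 ± 1.27 and Bdkrb1 0.910 ± 1.44 CPM per kb (SD, n = 6). Bdkrb2 was the higher in 5 of 6 cultures, by 1.05 ± 0.795 on the log2(CPM per kb + 0.1) scale, a difference that did not pass (SD, n = 6; exact sign-flip permutation p = 0.0625, adjusted p = 0.0625; 0.35 with a pseudocount of 1). In culture 5 the genes were level, at 3.75 CPM per kb for Bdkrb2 and 3.80 for Bdkrb1. The share of Bdkrb1 in the CPM per kb of the bradykinin receptors was 0%, 26.2%, 15.8%, 32.1%, 50.3% and 43.3% in cultures 1 to 6.

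In the order of mean log2 level, Ptgir came first, followed by Bdkrb2, Ptger4, Tbxa2r, Ptger1, Ptgdr, Bdkrb1, Ptgfr, Ptger3 and Ptger2. Of the 9 pairs of neighbours in this order, which was taken from the same cultures, 0 differed at an adjusted p under 0.05 (exact sign-flip permutation, Benjamini-Hochberg). Unadjusted, 2 pairs reached p = 0.0312 in the exact permutation test, the smallest possible (adjusted p = 0.141): Ptgir exceeded Bdkrb2 in 6 of 6 cultures, by 1.57 ± 1.04, and Ptgfr exceeded Ptger3 in 6 of 6 (log2, SD, n = 6). Over 9 pairs, the adjustment lets this smallest p pass only if most pairs reach it, so the 0 does not show that neighbours were equal. The same difference of Ptgfr and Ptger3 had an adjusted p of 0.0375 over the 6 named pairs (exact sign-flip permutation). Ptgir led Bdkrb2 by 2.96 in culture 1 but by 0.080 in culture 5. The place of Bdkrb1 rests on the scale, since by mean CPM per kb it lay above Tbxa2r (0.737 ± 0.240; SD, n = 6), and without culture 5 its mean was 0.332 ± 0.301 (SD, n = 5).

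**Figure D2:**
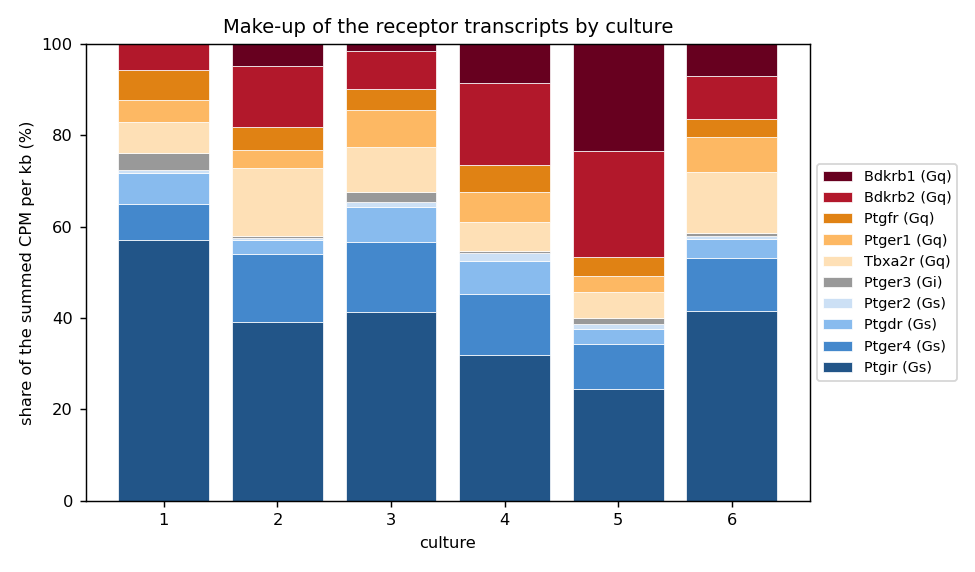
Share of each receptor gene in the summed CPM per kb of the 10 genes, 1 bar per culture, with blue shades for Gs-coupled, grey for Gi-coupled, orange shades for Gq-coupled prostanoid receptors and red shades for the bradykinin receptors. The red part was smallest in culture 1, at 5.70%, and largest in culture 5, at 46.7%.

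Grouped by coupling, the Gs-coupled receptors held 57.7% ± 11.4 of the summed CPM per kb, the Gq-coupled receptors 40.8% ± 12.2 and Ptger3 1.48% ± 1.31 (SD, n = 6). The Gs share was 72.4%, 57.6%, 65.4%, 54.2%, 38.7% and 58.0% in cultures 1 to 6, so that it was the larger share in all cultures but culture 5, where the Gq share was 59.9%. Ptgir alone made up 39.3% ± 11.0, and without it the Gs share was 31.1% and the Gq share 66.1%. The bradykinin receptors held 20.6% ± 14.7, from 5.70% in culture 1 to 46.7% in culture 5. Their summed level ranged from 0.306 to 7.55 CPM per kb, while that of the 8 prostanoid receptors ranged from 4.39 to 8.61 CPM per kb.

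Differences between cultures were tested gene by gene: a chi-square test asked whether counts varied more than counting noise allows, for each gene kept by the filter. The test called 76.3% of the 14998 genes, and 61.2% of the 4036 genes whose mean CPM lay within the range of the kept receptors. All 7 receptors that were tested were called. Benjamini-Hochberg adjusted p-values were 4.87e-124 for Bdkrb2, 9.94e-11 for Ptger4, 3.68e-08 for Ptger1, 1.83e-07 for Ptgir, 0.000233 for Ptgdr, 0.000589 for Ptgfr and 0.00366 for Tbxa2r. Because most kept genes were called, being called sets these receptors little apart. Ptgfr was not called without culture 5 (adjusted p = 0.127) and Tbxa2r was not called without culture 1 (adjusted p = 0.195).

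The 3 genes removed by the filter were called when no filter was applied, where 50.2% of 26854 genes were called: Bdkrb1 with an adjusted p of 4.11e-71, Ptger2 with 0.0100 and Ptger3 with 0.0163. Without culture 5 as well, Bdkrb1 was still called (adjusted p = 3.68e-06, chi-square) and Ptger2 was not (adjusted p = 0.0711). Expected counts of Ptger2 and Ptger3 were small, so their p-values are approximate.

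The size of the spread separated the receptors more than the test did. edgeR's biological coefficient of variation (BCV), an estimate of the spread between cultures beyond counting noise, was 0.705 for Bdkrb2, against a trend of 0.280 for genes of its abundance. That ratio of 2.52 lay at the 98.1st percentile of all kept genes. Without culture 5 the BCV of Bdkrb2 was 0.448, the ratio 1.73 and the percentile 95.7. Ptger1, Ptgdr and Ptger4 had ratios of 1.32, 1.29 and 1.27, Tbxa2r and Ptgfr 1.05 and 1.01, and Ptgir 0.836. The ratio of Ptgir, although under the trend, lay at the 68.0th percentile of all kept genes. Of the 7 kept receptors 6 thus lay above the trend, where 20.4% of all kept genes and 26.1% of those in the same range of abundance did. The count was 4 of 7 without culture 1 or without culture 2. These figures are descriptions, with no test.

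The cultures that were high and low were mostly shared. Culture 5 had the highest CPM for 7 of the 10 receptors, and for 29.2% of all kept genes. The exceptions were Ptger1 and Ptgdr, highest in culture 3, and Tbxa2r, highest in culture 6. The lowest CPM was in culture 1 for 5 receptors and in culture 2 for the other 5, where these cultures were lowest for 23.8% and 17.4% of kept genes.

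Marker lists of cell types were set beside the receptors, because the cultures differed in them. For the 5 receptors above 1 CPM in every culture and 7 lists, 35 relations over the 6 cultures were computed between log2(TMM-scaled CPM + 0.1) and the mean of the same quantity over a list. By Pearson's r, 6 relations had an adjusted permutation p under 0.05 (exact, 720 pairings, adjusted p = 0.0405 for each). By Spearman's rho 0 did, the smallest adjusted exact permutation p being 0.204, and 4 had an unadjusted p under 0.05. Within-batch values could not be given, as the labels name no batch.

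**Figure D3:**
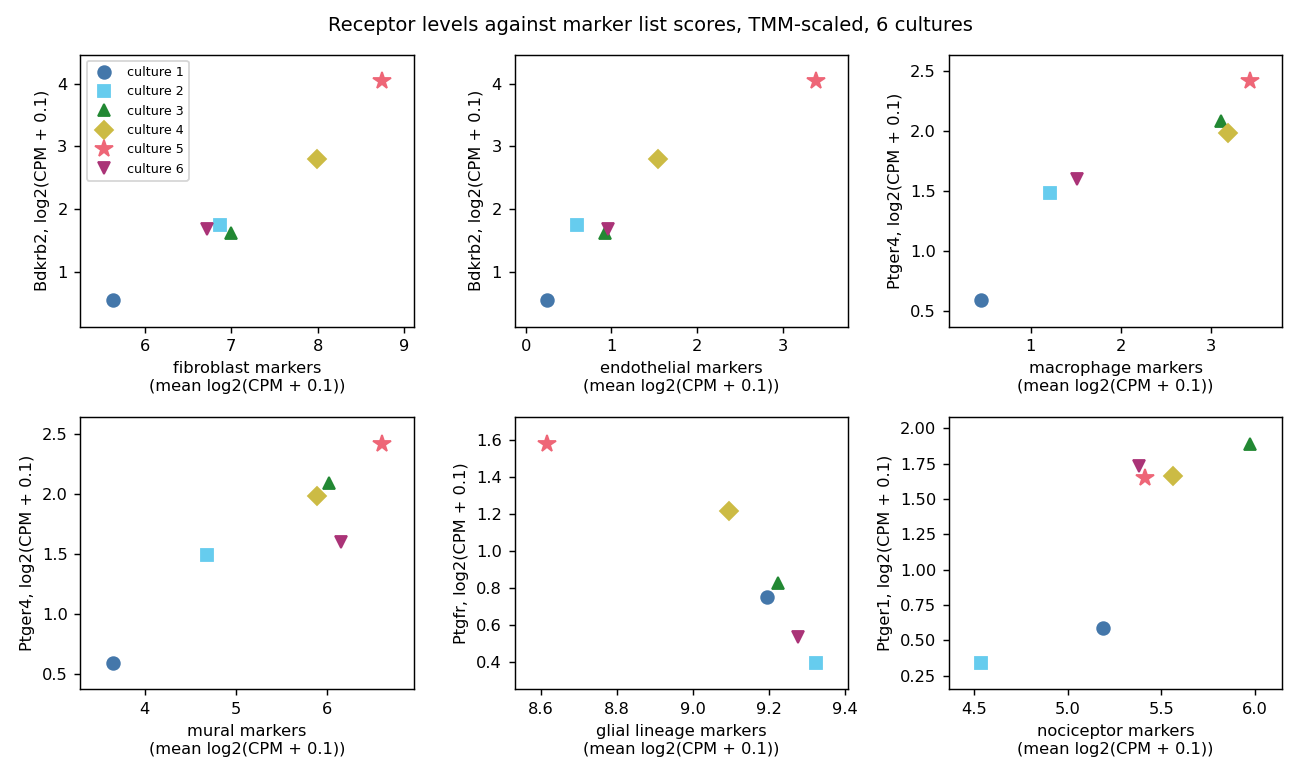
The 6 relations with an adjusted p under 0.05 by Pearson's r, with the marker list score on the horizontal axis, the receptor on the vertical axis, both log2 of TMM-scaled CPM + 0.1, and 1 symbol per culture. Culture 5 lies at an end of the axis of the list in the fibroblast, endothelial, macrophage, mural and glial lineage panels.

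Bdkrb2 followed the fibroblast list, with Pearson's r = 0.99 (exact permutation p = 0.00694) and a rank correlation (Spearman's rho) of 0.83 with an exact permutation p of 0.0583 (adjusted 0.204) over 6 cultures. Without cultures 1 and 5, the farthest from the median fibroblast score, r was 0.97. With the endothelial list, r was 0.96 (exact permutation p = 0.00694), rho 0.83 (exact permutation p = 0.0583, adjusted 0.204), and r 0.87 without cultures 1 and 5. Of the 7 fibroblast markers, 6 were highest in culture 5 and all 7 lowest in culture 1, and all 7 endothelial markers were highest in culture 5. The endothelial markers were scarce, with sums of 10.5 to 136 CPM and Cldn5 at 0 in 3 cultures. In rank, Bdkrb2 ran most closely against the neuron list (rho = -0.89, exact permutation p = 0.0333, adjusted 0.204), for which r was -0.61 (exact permutation p = 0.197, adjusted 0.371) and -0.38 without cultures 2 and 5. The glial lineage list had r = -0.83 and the macrophage list r = 0.80 (exact permutation p = 0.05 and adjusted 0.170 for each). The part of any of these lists in the level of Bdkrb2 was not tested.

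Ptger4 followed the macrophage list, with r = 0.94 (exact permutation p = 0.00278) and rho = 0.94 (exact permutation p = 0.0167, adjusted 0.204), and r was 0.98 without cultures 1 and 5. The summed macrophage markers ranged from 14.6 to 140 CPM, 5 of the 8 reached 1 CPM in all cultures, and Aif1 stayed under 1 CPM in each. With the mural list r was 0.92 (exact permutation p = 0.00694) and rho 0.83 (exact permutation p = 0.0583, adjusted 0.204). It dropped to 0.58 without cultures 1 and 2, so that relation rests partly on them. With the fibroblast list r was 0.90 (exact permutation p = 0.0194, adjusted 0.0851) and rho 0.89 (exact permutation p = 0.0333, adjusted 0.204), and r was 0.57 without cultures 1 and 5. The summed mural markers ranged from 307 to 2023 CPM, 7 of 8 reached 1 CPM in all cultures, and their part in the level of Ptger4, like that of the macrophage and fibroblast lists, was not tested.

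Ptgfr ran against the glial lineage list, with r = -0.92 (exact permutation p = 0.00278) and rho = -0.94 (exact permutation p = 0.0167, adjusted 0.204), and r was -0.96 without cultures 2 and 5. With the endothelial list r was 0.87 (exact permutation p = 0.0181, adjusted 0.0851), and 0.93 without cultures 1 and 5. With the fibroblast list r was 0.79 (exact permutation p = 0.0583, adjusted 0.170), and 0.92 without cultures 1 and 5. Ptger1 followed the nociceptor list, with r = 0.87 (exact permutation p = 0.00694) and rho = 0.83 (exact permutation p = 0.0583, adjusted 0.204), and r was 0.84 without cultures 2 and 3. Its r with the mural list was also 0.87 (exact permutation p = 0.0583, adjusted 0.170), but -0.39 without cultures 1 and 2. For the macrophage list r was 0.77 (exact permutation p = 0.0681, adjusted 0.183). All 7 nociceptor markers were above 1 CPM in every culture, and their sum ranged from 243 CPM in culture 2 to 606 CPM in culture 3. P2rx3, the most abundant of them by mean CPM, was instead highest in culture 1, at 209 CPM, and lowest in culture 5, at 76.8 CPM. The rest were highest in culture 3 and lowest in culture 2. For Ptgir, 0 of 7 relations had an unadjusted p under 0.05. The part of these lists in the levels of Ptgfr and Ptger1 was not tested.

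Platelets and mast cells are known sites of thromboxane and prostaglandin D2 signalling. Of 5 mast cell markers, 4 (Cpa3, Tpsb2, Mcpt4 and Fcer1a) had at most 3 counts in every culture, and the 5 summed to 0 to 0.573 CPM. Of 4 platelet markers, Gp9 and Gp1ba had at most 3 counts in every culture, and Itga2b had 2.74 to 3.83 CPM. The part of platelets and mast cells in the Tbxa2r and Ptgdr values was not tested.

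Genes that make and break down the ligands were examined from lists of named genes. Of 12 kinin genes, 5 passed the filter and all 5 were called by the chi-square test, where 76.3% of kept genes were. The kininogens, the precursors of bradykinin, had the same high and low cultures as the bradykinin receptors. So did 6 of the 7 fibroblast markers. Among all kept genes, culture 5 was highest for 29.2% and culture 1 lowest for 23.8%, and the share with both was not computed. Kng2 was counted at 0.479, 6.28, 7.80, 14.4, 43.6 and 4.23 CPM in cultures 1 to 6, with culture 5 highest and culture 1 lowest. Kng1 was counted at 0.392, 2.73, 5.08, 9.57, 31.3 and 2.37 CPM, in the same pattern. These genes are near-identical copies, so reads may have been divided between them, and each was fractional in 1 culture. Without culture 5 they averaged 6.65 ± 5.15 and 4.03 ± 3.52 CPM (SD, n = 5).

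Enzymes of kinin formation were scarce: Klk1 and F12 had at most 3 counts in every culture, and Klkb1 at most 0.249 CPM. Among peptidases that act on kinins, Cpn1 had at most 3 counts in every culture, Xpnpep2 averaged 0.140 ± 0.124 CPM and Cpm 0.483 ± 0.192 CPM (SD, n = 6). Others were higher, with Ace at 2.75 ± 0.783 CPM, Mme at 11.4 ± 3.53 CPM, Xpnpep1 at 93.8 ± 4.45 CPM and Cpd at 180 ± 10.7 CPM (SD, n = 6).

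**Figure D4:**
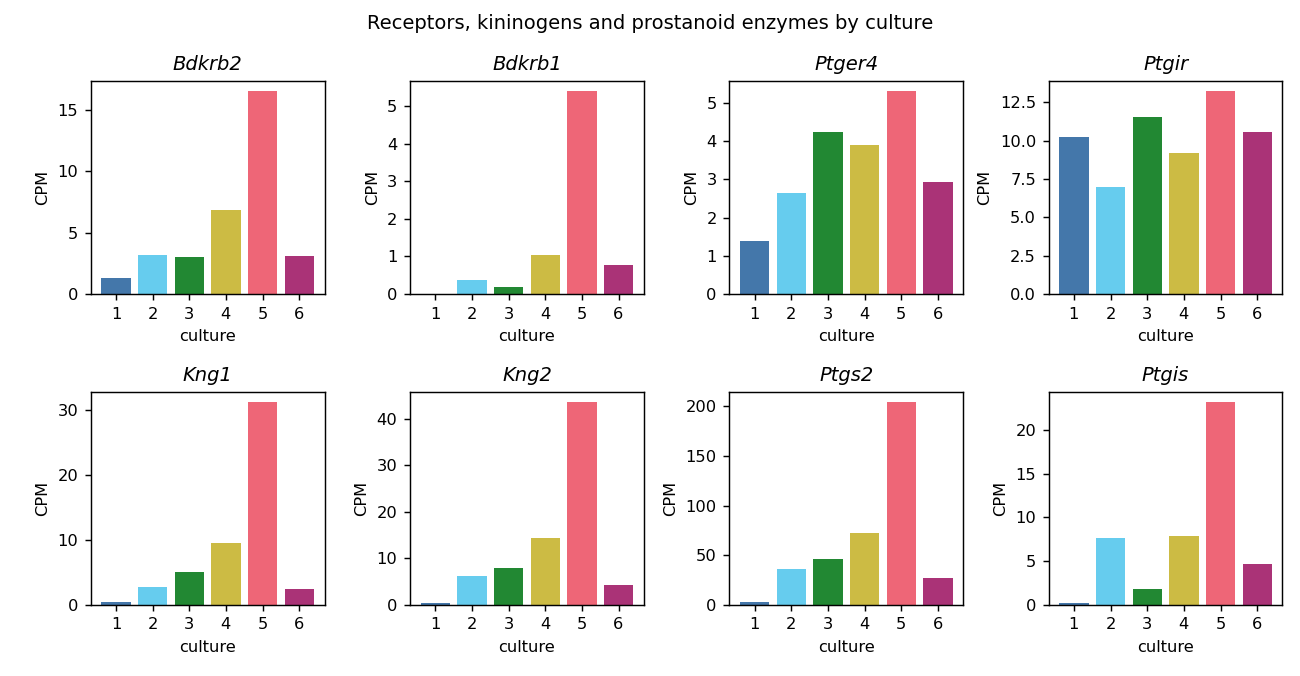
CPM by culture for the bradykinin receptors, Ptger4 and Ptgir, the kininogens Kng1 and Kng2, and the prostanoid enzymes Ptgs2 and Ptgis, 1 bar per culture from 0. Culture 5 was highest in all 8 panels, least so for Ptgir, and culture 1 was lowest in all but that of Ptgir.

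In prostanoid synthesis, 5 of 6 genes that passed the filter were called, near the 76.3% over all kept genes. Ptgs2, the inducible cyclooxygenase, was counted at 2.83, 36.5, 46.3, 71.8, 204 and 27.1 CPM in cultures 1 to 6, and Ptgis, the prostacyclin synthase, at 0.261, 7.70, 1.85, 7.87, 23.2 and 4.64 CPM. Culture 5 was highest and culture 1 lowest for both, and the filter removed Ptgis, as it did Kng1. The synthase of the ligand of Ptgir was thus 88.9-fold higher in culture 5 than in culture 1, and Ptgir itself 1.29-fold. The 88.9-fold ratio is imprecise, because it rests on 0.261 CPM in culture 1, where 3 counts correspond to 0.131 CPM. Of the clearance genes, Slco2a1, which carries prostaglandins into cells, ranged from 2.53 to 58.2 CPM, highest in culture 5 and lowest in culture 1.

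Downstream of the receptors, 9 of 10 G protein alpha subunit genes reached 1 CPM in all cultures, and all 9 were called. Of all genes 30.4% reached that level, and 76.3% of kept genes were called, so that calls in the lists below are common to most kept genes. Gnas, encoding Gs alpha, averaged 1193 ± 65.5 CPM, Gnai2 588 ± 32.0 CPM, Gnaq 191 ± 15.4 CPM and Gna11 107 ± 2.83 CPM (SD, n = 6). Among effectors, 14 of 17 reached 1 CPM in all cultures and all 15 tested were called. The adenylyl cyclase gene Adcy7 ranged from 6.84 CPM in culture 1 to 105 CPM in culture 5, while Adcy6 stayed between 103 and 128 CPM. Of the phospholipase C genes that Gq activates, Plcb3 led at 142 ± 7.28 CPM (SD, n = 6). All 6 genes of receptor desensitisation were above 1 CPM and called, with Arrb1 at 214 ± 44.3 CPM and Grk2 at 88.1 ± 6.76 CPM (SD, n = 6).

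Channels that prostanoid and kinin signalling is known to sensitise or inhibit in nociceptors were present too. Of 9 such genes, 8 reached 1 CPM in all cultures (30.4% of all genes) and all 9 were called (76.3% of kept genes). Trpv1 averaged 32.2 ± 12.4 CPM, Trpa1 10.4 ± 4.95 CPM and Scn10a 83.5 ± 35.6 CPM (SD, n = 6). All 3 were lowest in culture 2, and culture 5 was highest for none of them.

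By the distance between profiles over the 6 cultures, the genes most like Bdkrb2 among 11930 candidates were Slc7a11, a cystine transporter gene (root mean square difference 0.131 on the log2 scale), and Eya2 (0.147), against 1.02 for the median candidate. The nearest to Ptger4 were Itpr2, an inositol trisphosphate receptor (0.0909), and Cdc6 (0.141), with a median of 0.529. The nearest to Ptger1 were Pappa (0.128) and Hspb1 (0.139), with a median of 0.534. The nearest to Ptgir were Epb41 (0.0859) and Zfp52 (0.104), with a median of 0.298, and the nearest to Ptgfr were Znhit6 (0.0725) and Pim1 (0.0883), with a median of 0.369. These distances rest on 6 cultures and carry no test.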

How the data were processed

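RNA sequencing of 6 cultures of 1 group was analysed. The deposited table gave expected counts per gene, unscaled, and 13.4% to 14.7% of values per library were not whole. The submitters' processing notes name bcl2fastq 2.20.0.422, cutadapt 2.5, STAR 2.7.2b, featureCounts 1.6.4 (Subread) and the build GRCm38.p6, and strand setting and treatment of reads with several matches are not given in the sources used here. The deposited exon length, a number of bases with unit other, gave CPM per kb.

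The receptors and gene lists were chosen with earlier results of these data known. Counts were rounded for edgeR (version 4.0.16, under R 4.3.3), with DESeq2 (version 1.42.0) as an alternative, the filter was filterByExpr (minimum count 10), and scaling was TMM. The chi-square test, with 5 degrees of freedom, ran on all kept genes with Benjamini-Hochberg adjustment. On data simulated for it, 94 of 101 genes changed 2-fold and 98 of 99 changed 4-fold were recovered among 14931, with 7 other calls. The simulated counts held counting noise only, with no other spread between cultures. The 7 other calls thus do not carry over to these cultures, where 76.3% of kept genes were called. Named pairs and neighbours were tested by exact sign-flip over 64 patterns, two-sided, and relations by exact permutation, two-sided. Named genes were the receptors, the lists, and the 2 genes nearest in profile to each receptor above 1 CPM in all cultures, with a mean of at least 5 CPM and a pseudocount of 0.5. The shares within the abundance range and the values without culture 5 were chosen after seeing the data. Limits of 3 counts cover counting error only. A result behind the uncertainty of Ptger1 is not reported here.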

Additional observations from a re-analysis of the deposited data

Results flagged for a closer look

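Across 14 measures (the CPM of the 10 receptors, 3 coupling shares and the share of Bdkrb1), Dixon's ratio (how far the most extreme of the 6 cultures lay from the next, relative to the whole range) passed its 95% limit for 2. For independent and normally distributed measures, chance alone flags about 1 in 20 such groups, or 0.7 of 14. That number is a rough guide here, because the ratios were taken on CPM without logarithms and the coupling shares depend on each other. For Bdkrb1 the ratio was 0.806, with culture 5 at 5.40 CPM and the next culture at 1.05 CPM. For Bdkrb2 the ratio was 0.636, with culture 5 at 16.5 CPM and the next at 6.88 CPM. Culture 5 also had the highest sums of fibroblast, macrophage, endothelial and mural markers, and the part of these in the bradykinin receptor values was not tested.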

How the results depend on the processing

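Scaling, filter, pseudocount, truncation of fractional counts and the leaving out of each culture were varied. Among the main results, 216 values under an alternative were unchanged within the call, the replicate SD or 1.5 times the count, and 3 moved: without Ptgir, the Gs, Gq and Gi shares became 31.1%, 66.1% and 2.80%. For pair differences and coupling shares, leaving out 1 of 6 cultures cannot shift a mean by its SD. Those values could therefore not be counted as moved, and the 216 is no measure of robustness. A fall from 6 to 4 receptors above the BCV trend also counted as unchanged. Of the values for single genes and pairs, 185 were the same, 3 fell below the threshold and 11 reversed. The reversals were all between neighbours in the order of levels that did not differ by the test. Ptgdr minus Bdkrb1 became -0.18 with a pseudocount of 1 and -0.010 with truncated counts, and ranged from -0.44 to 0.53 with 1 culture left out. The other ranges were -0.23 to 0.16 for Bdkrb2 minus Ptger4, -0.44 to 0.47 for Bdkrb1 minus Ptgfr, -0.013 to 0.21 for Ptger1 minus Ptgdr and -0.034 to 0.35 for Ptger3 minus Ptger2. Ptgfr was not called without culture 5 (chi-square adjusted p = 0.127 with the filter and 0.187 without it), nor Tbxa2r without culture 1 (0.195). The number of receptors called ranged from 6 to 7 when single cultures were left out, and was 8 of 10 with no filter and without culture 5. Leaving out a culture gives 5 libraries, for which the sign-flip test cannot go below 0.0625, so those differences were compared as values. Depth limits Ptger2 and Ptger3, which had at most 15 and 10 counts in any culture, and Bdkrb1 in cultures 1 to 3, with at most 8. No paired analysis was possible because there was a single group.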
